A study of Mus musculus with 23 samples.

Results

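The genes described here encode the proteins of the cytosolic ribosome. They were taken as all symbols made of Rpl or Rps, a number and at most a short suffix, together with Rplp0, Rplp1, Rplp2 and Rpsa. This rule found 84 of the 24029 genes in the deposited table, 51 for the large subunit (Rpl) and 33 for the small subunit (Rps). The rule uses symbols alone and no measured value, though it was set with earlier results of these data known. All 84 symbols matched the RefSeq gene table, which places them on 19 chromosomes, with 14 on chromosome 7 and 4 on chromosome X.

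The study introduced TELP (tailing, extension, ligation and PCR), a way to build sequencing libraries from little material, and set it beside standard libraries from the same kind of cells. The cells were C3H10T1/2, a mouse mesenchymal stem cell line of strain C3H. Before differentiation all cells were seeded in growth medium (DMEM with 10% Fetalclone III serum) with 8.3 nM human recombinant BMP7 for 3 days. Day 0 is the pre-adipocyte state at the start of induction. Day 7 is the adipocyte state, after induction with 5 uM dexamethasone, 0.5 mM IBMX, 0.12 ug/ml insulin, 1 uM Rosi and 1 nM T3, and then insulin, Rosi and T3 alone. The 6 RNA libraries were 1 standard library at each day, 1 TELP library called N9 at each day, and 2 further TELP libraries at day 7 called N9_ss and T18. The labels do not spell out what N9, ss and T18 stand for. Standard libraries were made from mRNA caught on oligo(dT) beads, fragmented and primed with random hexamers. Each group is 1 library of 1 cell line, so there was no replicate in any group. Every difference below compares 2 libraries, and the spread between cultures is not known. The 17 chromatin samples of the series were not analysed here.

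The ribosome translates mRNA into protein. Its small subunit reads the codons and its large subunit joins the amino acids, and each ribosomal protein is needed once per ribosome, apart from the stalk proteins. The mRNAs of these genes are among the most abundant in growing cells. In mammals nearly all of them start with a C followed by a run of pyrimidines, the 5′ terminal oligopyrimidine (TOP) sequence, through which the mTOR pathway controls their translation together. Many of the genes also carry small nucleolar RNAs in their introns and have processed pseudogenes elsewhere in the genome.

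The TOP sequence is the feature these start sites are best known for, so the start regions of a few members named below are shown first. Each line gives 30 bases before and 20 bases from the annotated start of the gene, 5′ to 3′ on the gene's strand, from RefSeq build GRCm38.p6. Capitals mark the longest run that begins with C and continues with at least 7 further C or T (the first such run where lengths are equal). The first 4 are a stalk protein and 3 core members that were low at day 7. The last 3 are the paralogue forms Rps27l, Rpl7l1 and Rpl22l1.
Rplp2 (chr7:141447621-141447670, + strand): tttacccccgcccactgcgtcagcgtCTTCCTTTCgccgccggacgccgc
Rps12 (chr10:23787190-23787239, - strand): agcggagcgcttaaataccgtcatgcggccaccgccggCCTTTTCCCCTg
Rps18 (chr17:33955646-33955695, - strand): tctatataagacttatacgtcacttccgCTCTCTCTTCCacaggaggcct
Rpl35 (chr2:39005112-39005161, - strand): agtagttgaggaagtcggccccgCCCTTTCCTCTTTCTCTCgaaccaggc
Rps27l (chr9:66946056-66946105, + strand): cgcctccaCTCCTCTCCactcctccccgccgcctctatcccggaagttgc
Rpl7l1 (chr17:46782637-46782686, - strand): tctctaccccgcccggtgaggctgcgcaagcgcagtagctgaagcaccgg
Rpl22l1 (chr3:28805478-28805527, + strand): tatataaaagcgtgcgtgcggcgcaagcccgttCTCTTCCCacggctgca
The run lies over or beside the annotated start in Rplp2, Rps18, Rpl35 and Rpl22l1, and 8 or more bases after it in Rps12. Rps27l has its run upstream of the start, and Rpl7l1 has none in the window.

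A promoter window was found for 63 of the 84 members. A pyrimidine run of this kind, within 30 bases on either side of the start, was present in 49.2% of the 63 and in 17.4% of the 8402 genes that entered the day comparisons and had a window. The letters CTCTTTC, which can overlap such a run, were present on either strand in 27.0% of whole member windows against 6.90%. The letters CCGGAAG, a core that ETS family factors are known to bind, were present in 39.7% against 19.6%. AAGATGG, a core of the YY1 motif, was present in 14.3% against 7.63%. TATAAA, the TATA box core, was present in 9.52% against 6.62%. These matches describe letters in annotated windows. Members with and without the run had nearly the same median difference between day 7 and day 0, with -0.74 (30 members) and -0.75 (29 members) for the standard pair and -1.36 (31 members) and -1.25 (30 members) for the TELP N9 pair.

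Values are RPKM, a read density scaled to transcript length and library size, as deposited. Differences are in log2(RPKM + 1), which understates the change of low genes. A gene entered a comparison when its mean over the compared libraries was at least 1 RPKM, and a difference of 1 or more on this scale was counted as higher or lower. The deposited values hold no read counts. From low values that are multiples of 1 read, the depth of standard day 7 was 0.985 of that of standard day 0, N9 day 0 was 1.57, N9 day 7 was 0.382, N9_ss was slightly above that and T18 was 0.331, so the 3 TELP libraries of day 7 rest on the fewest reads. The state of the cells was checked on 7 adipocyte markers, whose summed level was 39.9 and 29.8 RPKM at day 0 and between 5172 and 32467 RPKM in the 4 libraries of day 7. All 7 were higher at day 7 in both library types, and of 5 pre-adipocyte markers 3 were lower in both. Markers of macrophages, endothelium and muscle were low, with summed levels of 0.944 to 6.19, 0 to 11.3 and 1.63 to 36.6 RPKM over the 6 libraries. The single endothelial marker above 1 RPKM, Tek, was at 11.2 and 9.46 RPKM at day 0 and at most 1.18 RPKM at day 7. The muscle actin Acta1 was at 11.9, 5.20, 36.5, 7.39, 7.61 and 1.41 RPKM (standard day 0 and day 7, N9 day 0 and day 7, N9_ss and T18), with differences of -1.05 and -2.16 between the days. Myod1, Myog and Ckm were at or near 0. The other muscle marker, Des, went the other way. It was at 0.0243 and 0.690 RPKM in the standard pair and 0.0154 and 1.27 in the N9 pair. Of the macrophage markers, Cd68 was higher at day 7 (0.48 and 2.00) and Cd14 lower (-0.27 and -0.64). The part of these other cell types in the results was not tested.

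Ribosomal protein mRNAs were abundant in every library, and their share of all RPKM was lower at day 7. The 84 members summed to 24552 RPKM at day 0 and 15098 at day 7 with standard libraries, and to 39406 and 17347 with N9. The sums were 17380 RPKM for N9_ss and 7712 for T18. These 6 sums were 7.10%, 4.42%, 9.63%, 2.97%, 2.97% and 1.32% of all RPKM in the same order. The summed level was thus 1.63-fold lower at day 7 in the standard libraries and 2.27-fold lower in TELP N9. Of the 100 genes with the highest RPKM, 19 and 9 were members in standard day 0 and day 7, and 31 and 4 in N9 day 0 and day 7. RPKM is a relative measure. In bulk samples, fewer cells with these transcripts, less of the RNA per cell and a larger share of other transcripts cannot be told apart. The 10 highest genes took 7.56% and 9.80% of all RPKM in standard day 0 and day 7. In N9 day 0 and day 7 they took 15.2% and 32.8%.

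Rpl41, which encodes the smallest ribosomal protein, had the highest level of the members in all 6 libraries, at 1520.3, 1197, 2980.4, 1794, 1715 and 765 RPKM (in the order standard day 0, standard day 7, N9 day 0, N9 day 7, N9_ss and T18, which is used throughout). By mean log2 level over the standard and N9 libraries it was followed by Rps15, Rplp1, Rps26 and Rps20. Rps15 was at 990.1, 636, 1971, 729.8, 741 and 267 RPKM, and Rps20 at 789.5, 412, 1857, 444, 429.8 and 183 RPKM. Both were lower at day 7 than at day 0 in each library type. At the other end, 78 members were at 1 RPKM or more in all 6 libraries and 6 were not. These 6 were the paralogue forms Rpl3l, Rpl10l, Rps4l and Rpl39l, and Rpl26 and Rpl30. The median small subunit member exceeded the median large subunit member in every library, for instance at 270.4 against 199 RPKM in standard day 0 and at 178 against 110.1 RPKM in N9 day 7.

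**Figure D1:**
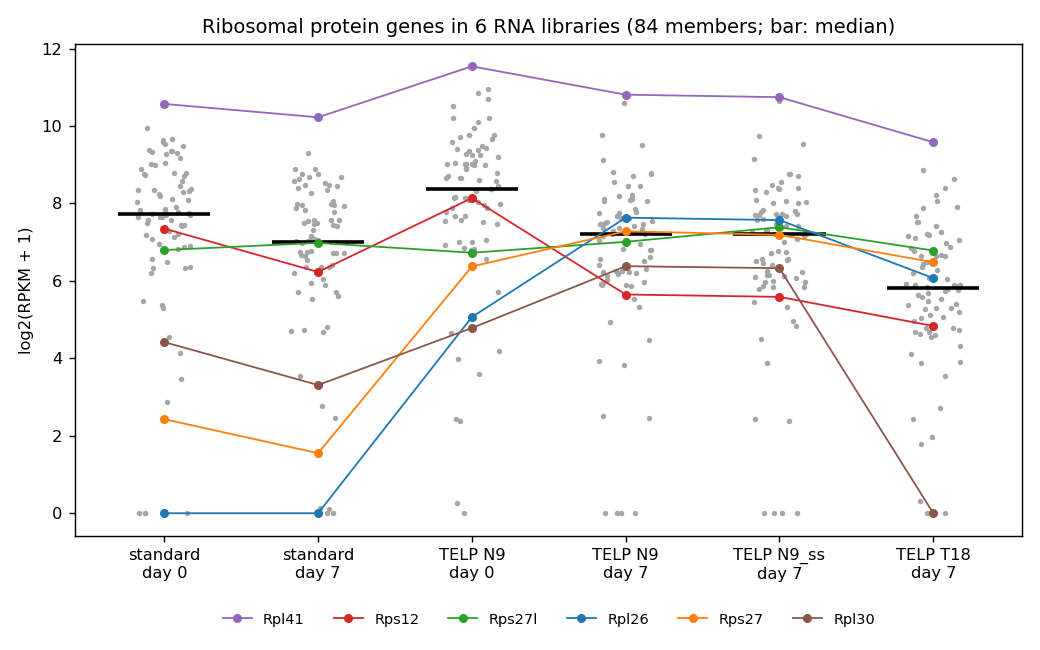
Level of each of the 84 members in the 6 RNA libraries, as log2(RPKM + 1). Points are single genes, black bars the median of the 84 members, and coloured lines follow 6 named members. The standard medians were 211 RPKM before and 129 RPKM after differentiation, and the N9 medians 331 and 148 RPKM. Rpl41 is the top line throughout, Rps27l stays between 105 and 166 RPKM, and Rpl26, Rps27 and Rpl30 cross the others.

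The order of members by level was kept closely within the standard pair. Over the 79 members at 1 RPKM or more in all 4 standard and N9 libraries, log2 levels had Pearson's r = 0.988 and Spearman's rho = 0.977 between its 2 libraries. Within the N9 pair, r was 0.895 and rho 0.907. Between standard and N9, r was 0.919 at day 0 and 0.795 at day 7. Without Rpl26, Rps27, Rpl34 and Rpl30, which are described further on and were set aside after their values were seen, the last r was 0.896 over 76 members. These are correlations across genes that share gene length and base composition between libraries, and genes are not independent replicates.

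The first comparison asks how the transcripts differ between pre-adipocytes and adipocytes. In the standard libraries, the members sat in a narrow band below 0. Of the 79 members kept, 77 were lower at day 7 to some degree, with a median difference of -0.75 (quartiles -0.85 and -0.59, SD across genes 0.25), while the median of all 11312 genes kept was -0.18. The median member was 1.69-fold lower. Between -1 and -0.5 lay 62 members, and 13 between -0.5 and 0. Only 2 passed a difference of 1, both lower, against a background of 6.53% of all genes lower and 8.22% higher. These were Rps12 at -1.12 and Rpl30 at -1.11, and Rpl7 (-0.99) and Rps3a1 (-0.98) fell just short. The 2 members above 0 were Rps27l (0.18) and Rpl7l1 (0.11), both paralogue forms, and next came the stalk protein Rplp2 (-0.08) and the large subunit protein Rpl36 (-0.23). Large and small subunit members had medians of -0.74 and -0.77.

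In the TELP N9 libraries the same comparison gave larger and more scattered differences. Of 82 members kept, 77 were below 0, and the median was -1.36 (quartiles -1.67 and -0.94, SD across genes 0.88) against -0.45 for all 11360 genes kept. The median member was 2.57-fold lower. Of the 82, 60 passed a difference of 1 downwards, where the background was 29.9% of all genes, and 3 passed it upwards, where the background was 13.9%. Among members above 0 in both libraries, the lowest differences were those of Rps12 (-2.49), Rps18 (-2.42), Rpl12 (-2.41) and Rps14 (-2.22). The 5 members above 0 were Rpl26 (2.57), Rpl30 (1.60), Rpl34 (1.38), Rps27 (0.91) and Rps27l (0.28). Rpl35, a large subunit protein at the exit of the peptide tunnel, differed by -0.64 in the standard libraries and -1.71 here. Large and small subunit members had medians of -1.31 and -1.42.

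Rps12, a small subunit protein, was the single member lower by 1 or more in both library types, where 5.81% of all genes were. After median of ratios no member was (0, background 3.81%), and after quantile normalization 10 were (background 5.29%), Rps12 among them. It was at 162, 74.1, 281, 49.2, 47.1 and 27.6 RPKM, so that all 4 libraries of day 7 lay below both of day 0. Rps18, another small subunit protein, was at 418, 246, 990.3, 184, 176 and 143 RPKM. Rpl12, a large subunit protein at the base of the stalk, was at 326, 172, 521, 97.6, 93.2 and 44.0 RPKM. For both genes, too, no library of day 7 reached the lower library of day 0. This order is not particular to them, and Rpl10 showed it as well, at 223, 128, 288, 110, 106 and 26.5 RPKM. N9_ss shares reads with N9, and T18 was lower than N9 by 1 or more for 83.4% of all genes. Without counting size, 74 of 82 members (90.2%) were below 0 in both library types, against 56.1% of all genes. No member was higher by 1 or more in both types (background 7.23%), and 1, Rpl30, was called in opposite directions (background 0.218%).

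**Figure D2:**
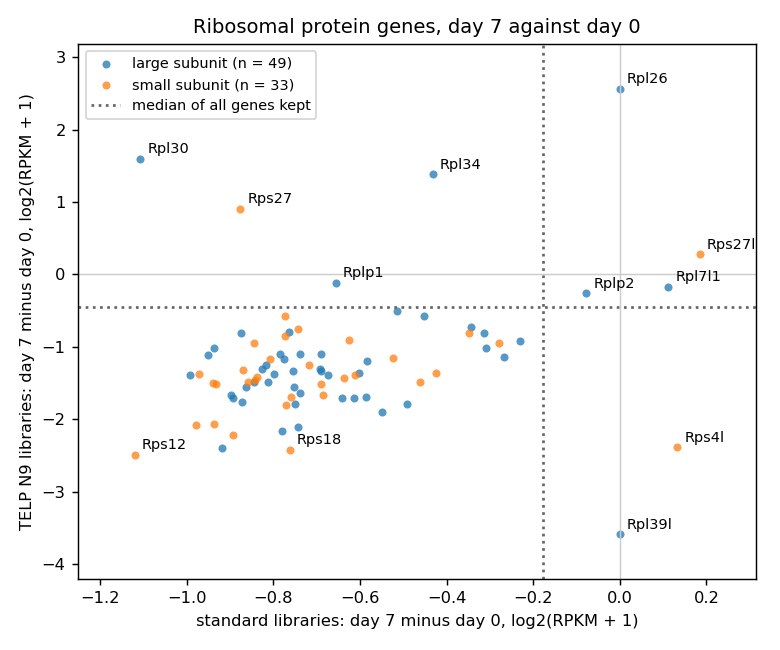
Difference between day 7 and day 0 in log2(RPKM + 1) for the 82 members kept in either comparison, standard libraries on the x axis and TELP N9 libraries on the y axis, with 49 large and 33 small subunit members. Dotted lines mark the medians of all genes, -0.18 and -0.45. Most members form 1 cloud in the lower left, with Rps27l above 0 on both axes and Rpl26, Rpl30, Rpl34 and Rps27 above it on the y axis.

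With library type as a block, limma gave a test over the 4 standard and N9 libraries, with 1 residual degree of freedom. The spread it measures is how far the 2 library types differ in the day difference. It is not the spread between cultures. No member of 82 passed a Benjamini-Hochberg adjusted p of 0.05, where 1.62% of all genes did. The smallest adjusted p among members was 0.128, for Rps12, and the largest was 0.985, for Rps27, whose standard and TELP values had opposite signs. At an unadjusted p of 0.05, 33 of 82 members passed (40.2%, against 27.3% of all genes), but this count was 4 of 81 after median of ratios, 17 of 84 with no filter, 44 of 82 with a pseudocount of 0.1 RPKM and 1 of 82 with T18 in place of N9. After scaling to equal totals 5 members passed the adjusted threshold, along with 1750 genes in all.

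The median member stayed below the median gene under each scaling tried. With the deposited RPKM and after 3 scalings (to the median of ratios, to equal totals or by quantile normalization), it lay 0.56 to 0.68 below the median of all genes kept in the standard comparison. In the TELP N9 comparison it lay 0.86 to 1.47 below. With T18 as the day 7 library the TELP distance was 0.48. The number of members past a difference of 1 did move with the scaling. For members lower at day 7 in the standard comparison it was 0 after median of ratios and 12 after quantile normalization. In the TELP N9 comparison 25 were lower after median of ratios. No share of all genes is given for these rescaled counts, so they are not read as a result about the members. The size of the difference also depended on library type: TELP minus standard was below 0 for 73 of 82 members, with a median of -0.62 against -0.27 for all genes. Depth moved with it, since N9 day 7 had 0.243 of the depth of N9 day 0 and the standard pair were nearly equal in depth. Its part in the result was not tested.

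The stalk of the large subunit, built from Rplp0 and several copies of Rplp1 and Rplp2, recruits the translation factors. Rplp0, the base of the stalk, was at 532, 310.0, 623, 276, 267 and 76.6 RPKM, and followed the rest of the family with differences of -0.78 (standard) and -1.17 (TELP N9). Rplp1 was at 742, 471, 1670.2, 1542, 1609 and 398 RPKM, with differences of -0.66 and -0.12. Rplp2 was at 147, 139, 665, 555, 571 and 205 RPKM, with differences of -0.08 and -0.26. The stalk tips Rplp1 and Rplp2 thus lay nearer to 0 than the family median in both library types, Rplp1 only slightly so in the standard pair. In the table Rplp2 has a copy, Rplp2-ps1, at 200.5, 171, 372, 282, 267 and 128 RPKM, and the sum of both differed by -0.16 and -0.31 between the days. Rpsa, a small subunit protein that is also known as a laminin receptor, was at 270.4, 188, 439, 196, 191 and 54.4 RPKM, with differences of -0.52 and -1.16.

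Of the 84 members, 7 carry paralogue-form symbols, and they did not behave alike. Rps27l, known in mammals as a p53 target and a close relative of Rps27, was at 110.2, 125, 105, 128, 166 and 109 RPKM. It ranked 64 among the 84 members in standard day 0 and 47 in day 7, and 71 and 46 in N9 day 0 and day 7. Rpl7l1, a relative of Rpl7, was at 22.7, 24.6, 24.1, 21.3, 21.7 and 2.88 RPKM, nearly level in all but T18. Its namesake Rpl7 was at 650.3, 327, 514, 196, 201 and 99.3 RPKM. Rpl22l1, a relative that can take the place of Rpl22 in the ribosome, was at 40.9, 24.9, 115, 45.2, 43.2 and 49.0 RPKM and followed the family, with differences of -0.69 and -1.33. Rpl22 itself was at 80.2, 45.1, 93.9, 39.0, 38.8 and 10.8 RPKM.

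The 4 other paralogue forms were near or at the bottom of the range. Rpl39l, a form best known from the testis, was at 11.0 RPKM in N9 day 0 and listed at 0 in the other 5 libraries. Rps4l was at 4.25 RPKM in N9 day 0 and 0.0956 in standard day 7, and listed at 0 in the other 4. Rpl3l, a form of striated muscle, was listed with 0.0844 RPKM for standard day 7 and 0.251 for T18, and Rpl10l, another testis form, at 0.210 RPKM in N9 day 0. All were listed at 0 elsewhere. Rpl39l and Rps4l were thus above 1 RPKM in the deepest library alone, and each is a close relative of another member, so that reads could be split between them and their values are uncertain.

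Of the proteins of the ribosome that the symbol rule leaves out, Fau and Gnb2l1 were low at day 7 as the family was. Fau, which encodes Rps30 as a fusion with a ubiquitin-like protein, was at 297, 195, 753, 257, 248 and 141 RPKM (differences -0.60 and -1.55). Gnb2l1, the scaffold protein RACK1, was at 573, 333, 678, 235, 248 and 50.8 RPKM (-0.78 and -1.52). Rpl36al, a close relative of Rpl36a, was at 190.0, 194, 154, 244, 239 and 97.8 RPKM (0.03 and 0.66). Rpl36al therefore stayed near its day 0 level in the standard libraries and was not lower in TELP N9.

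Of the members that went against the family in TELP N9, Rps27 and Rpl34 have near copies among the other symbols of the table. Rps27 was at 4.39, 1.93, 81.9, 155, 145 and 88.4 RPKM. Its copy in the table, Rps27rt, was at 223, 113, 433, 0.391, 0.393 and 85.8 RPKM. Rps27 took 1.93% and 1.68% of their sum in the standard pair, 15.9% in N9 day 0, 99.7% in both N9 day 7 and N9_ss, and 50.8% in T18. The share assigned to Rps27 thus ranged from nearly none to nearly all. The sum was lower at day 7 by a log2 difference of -0.98 in the standard libraries and -1.73 in TELP N9, both below the lower quartile of the members, where Rps27 alone gave -0.88 and 0.91.

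Rpl34, a large subunit protein, also went against its copy in the N9 pair. It was at 6.38, 4.47, 4.43, 13.2, 27.4 and 14.0 RPKM, and its copy Rpl34-ps1 was at 204, 129, 362, 41.6, 22.6 and 36.7 RPKM. Rpl34 took 3.04% and 3.34% of the sum in the standard pair, 1.21% and 24.0% in the N9 pair, 54.8% in N9_ss and 27.7% in T18. The sum differed by -0.65 between days in the standard libraries and by -2.72 in TELP N9, further below 0 than the family median there, where Rpl34 alone gave -0.43 and 1.38. Of the 84 members, 7 have such copies in the table by symbol, 8 copies in all. Rps15a is another: it was at 10.1, 5.87, 14.7, 4.51, 4.17 and 4.41 RPKM, between 8.12% and 12.2% of its sum with Rps15a-ps4 and Rps15a-ps6. Levels of these members alone are therefore uncertain.

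**Figure D3:**
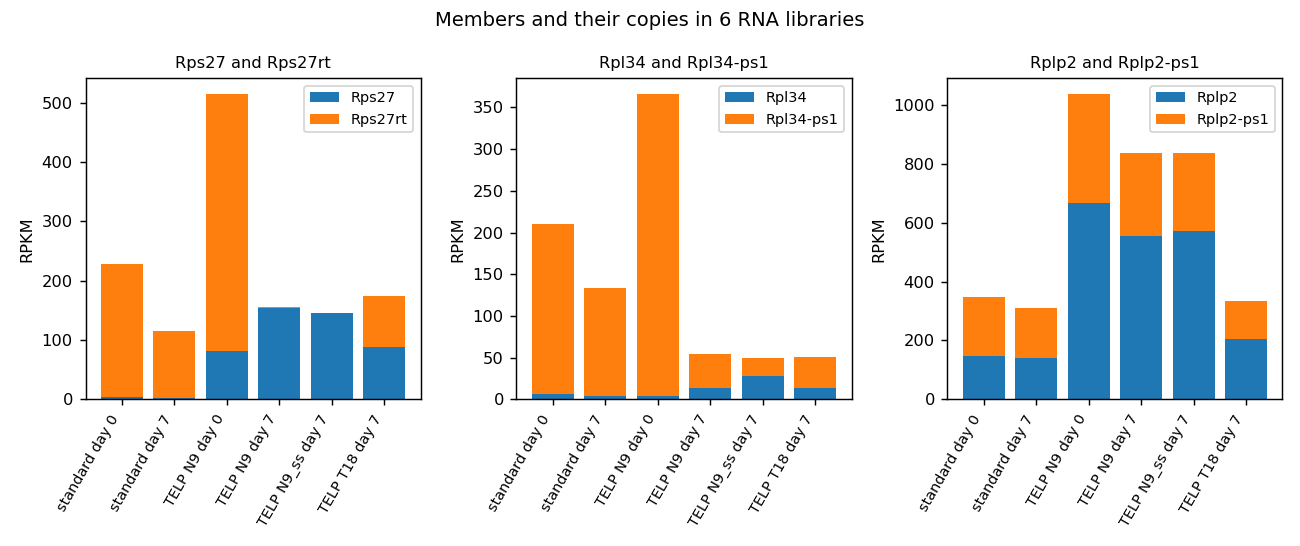
RPKM of Rps27, Rpl34 and Rplp2 (blue) with their copies Rps27rt, Rpl34-ps1 and Rplp2-ps1 (orange) stacked on top, in each of the 6 RNA libraries. In Rps27 nearly the whole bar is the copy in the standard libraries and nearly the whole bar is the member in N9 and N9_ss of day 7, while the summed height is lower at day 7 in both library types.

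Rpl26 and Rpl30 also went against the family in TELP N9, and no copy of theirs was found by symbol. Copies were sought only as the member's symbol followed by -ps and a number or by rt. Copies under other names were not looked for. Rpl26, a large subunit protein near the exit of the peptide tunnel, was at 0.000460, 0.000472, 32.5, 198, 189 and 66.4 RPKM, far below the other core members in both standard libraries. Rpl30 was at 20.4, 8.93, 26.6, 82.3, 79.4 and 0.00192 RPKM. Both are core members of the ribosome of every cell, and their values near 0 are given only as listed.

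Next, TELP N9 was set against the standard library at the same day. At day 0 the members were higher in TELP N9 by a median of 0.58, where the median of all 11277 genes kept was 0.01. Of 82 members kept, 74 were above 0, 20 were higher by 1 or more (background 2.2%) and 0 lower (background 0.718%). Small subunit members had a median of 0.70 and large subunit members of 0.48. Among members above 1 RPKM in both libraries the largest differences were those of Rps27 (3.94), Rplp2 (2.17), Rpl36 (1.76), Rps21 (1.58) and Rpl37 (1.54). The members furthest below 0 were Rpl7a (-0.64), Rpl23a (-0.58), Rpl34 (-0.44) and Rpl7 (-0.34).

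At day 7 the median member differed little between the library types in the deposited values. The median difference was -0.03 against -0.23 for all 11044 genes kept, with 38 of 80 members above 0. Higher by 1 or more were 12 members (background 7.51%), led by Rpl26 (7.63), Rps27 (5.73), Rpl30 (3.07), Rplp2 (1.99) and Rplp1 (1.71). Lower by 1 or more were Rps24 (-1.22) and Rpl21 (-1.05), where the background was 17%, and next came Rpl32 (-0.92) and Rpl17 (-0.89). Rps24, a small subunit protein mutated in some cases of Diamond-Blackfan anaemia, was at 814, 476, 718, 204, 211 and 107 RPKM. The day 7 median depended on the scaling, at 0.32 after median of ratios, -0.80 after equal totals and -0.44 after quantile normalization. The median member lay 0.20 above the median of all genes with the deposited values and 0.46 below it after quantile normalization.

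Some members differed between library types in the same direction at both days. Higher in TELP N9 at both days were 9 of 82 members (11.0%, against 0.601% of all genes): Rpl26, Rpl36, Rpl37, Rplp1, Rplp2, Rps16, Rps21, Rps26 and Rps27. Lower at both days was none (background 0.192%). The count of members higher at both days was 12 after median of ratios (background 0.629%), 3 after equal totals (0.189%) and 4 after quantile normalization (0.58%). Rplp2, Rpl26 and Rps27 were among them under each scaling. Rpl26, however, was listed near 0 in both standard libraries. In the deposited values the sum of Rps27 and Rps27rt differed by 1.18 at day 0 and by 0.43 at day 7. The sum of Rplp2 and Rplp2-ps1 differed by 1.57 and 1.43. Rps21, a short small subunit protein, was at 135, 81.5, 404, 169, 229 and 136 RPKM. Rpl36 was at 118, 101, 404, 213, 204 and 141 RPKM, and Rps26 at 721, 431, 1473, 871, 862 and 237 RPKM. For all 3, N9 at day 7 lay above the standard library of the same day by a log2 difference between 1.02 and 1.08. Across 79 members the TELP minus standard difference of day 0 went with that of day 7 (r = 0.726, rho = 0.626), and across 76 without the 4 members named above r was 0.755. The difference between the days, in contrast, was less alike between the library types, with r = 0.346 over 79 members and r = 0.596 over 76.

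**Figure D4:**
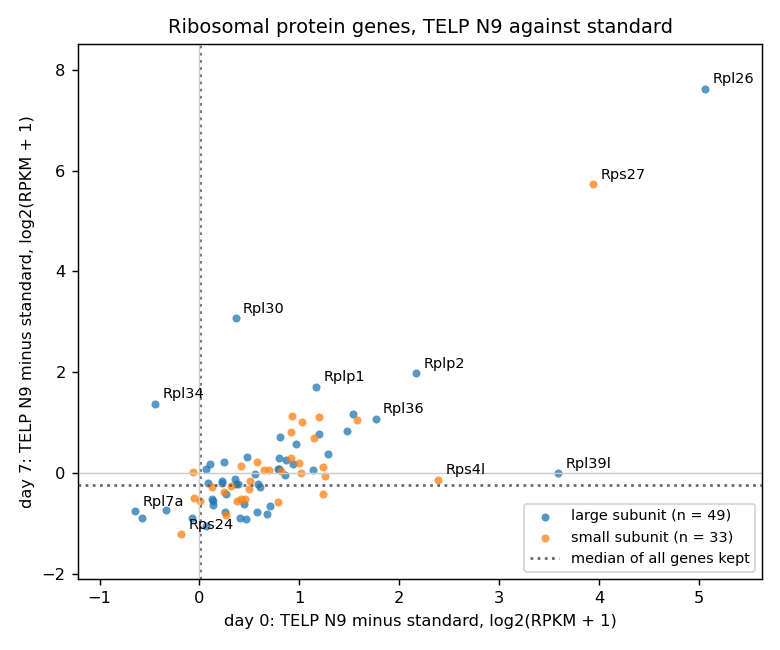
Difference between TELP N9 and standard libraries in log2(RPKM + 1) for the 82 members kept at either day, day 0 on the x axis and day 7 on the y axis, in blue for the large and orange for the small subunit. Dotted lines mark the medians of all genes, 0.01 and -0.23. Most members lie to the right of the vertical dotted line, the cloud spreads around 0 on the y axis, and Rpl26 and Rps27 lie in the upper right.

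The N9_ss library of day 7 was close to N9. Their values share reads: 86.0% of low genes stood at 1 common ratio between the columns, 1.05 in depth. After that ratio, 25 of 80 members were equal within 0.1%, 50 were higher in N9_ss and 5 lower. The comparison is thus no independent check of N9. Of the 80 members kept, 1 was higher by 1 or more, Rpl34 at 1.01 (background 0.0194%), and 0 were lower (background 0.00968%). Rpl34 was at 13.2 RPKM in N9 and 27.4 in N9_ss, and its sum with Rpl34-ps1 differed by -0.13. Next were Rps21 (0.43), Rps27l (0.38), Rpl35a (0.33) and Rps25 (0.25), and the lowest were Rpl38 (-0.18), Rps15a (-0.09), Rps27 (-0.09) and Rpl7a (-0.07).

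In the T18 library of day 7 the members were lower than in N9, though less so than other genes. Of 80 members kept, 51 were lower by 1 or more, but the background was 83.4%, and 0 were higher (background 0.841%). The median was -1.25 against -1.77 for all 9753 genes kept. In T18 the 10 highest genes took 79.8% of all RPKM, against 32.8% in N9 day 7 and 7.56% in standard day 0, and the direction of the difference from N9 turned with the scaling. After median of ratios the members' median was 0.95 against -0.05 for all genes kept, with 36 members higher and 1 lower. After quantile normalization it was 0.70 against 0.003, with 25 higher and 1 lower. No share of all genes is given for these rescaled counts. Above 0 in the deposited values were 4 members: Rps14 (0.72), Rpl39 (0.42), Rpl22l1 (0.11) and Rpl34 (0.09). Rps14, a small subunit protein lost in the human 5q- syndrome, was at 347, 186, 833, 178, 211 and 294 RPKM. Rpl39 was at 653, 356, 1183, 346, 334 and 465 RPKM. The lowest member was Rpl30 (-6.38), listed at 0.00192 RPKM in T18, followed by Rpl7l1 (-2.52), Rpl13a (-2.21) and Rps16 (-2.11).

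The rest of the translation machinery was described through lists. Elongation factors, with Tpt1 counted among them, had median differences between day 7 and day 0 of -0.51 (standard) and -0.63 (TELP N9) over 8 genes kept, with 1 lower in both types (background 5.81%). This was Tpt1, the translationally controlled tumour protein, which is not itself an elongation factor and whose mRNA is a known TOP mRNA, at 2013, 993, 2524, 569, 545 and 87.5 RPKM (differences -1.02 and -2.15). Eef2, the translocation factor, was at 1024, 609, 1000.5, 634, 666 and 45.1 RPKM (-0.75 and -0.66). Eef1g, a subunit of the exchange factor of elongation, differed by -0.35 and -1.29. Eef1a1 of the same list differed by -0.57 and -0.20, and 2 of the 8 genes were above 0 in each library type.

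Initiation factors as a list lay near the median of all genes, at -0.20 and -0.29 over 30 genes, with 1 of 30 lower in the standard libraries (background 6.53%) and 5 of 30 in TELP N9 (background 29.9%). The genes furthest from 0 were Eif3e (-0.88 and -2.45), Eif3h (-1.01 and -1.51) and Eif4b (-0.89 and -1.38). Eif3e and Eif3h encode subunits of the scaffold complex eIF3, and Eif4b encodes a helper of the helicase eIF4A. In human cells the mRNAs of all 3 are known to carry TOP sequences. These 3 were named for the size of their differences, and no TOP status is given for the other genes of the list. Of the 30 genes, 8 were above 0 in the standard libraries and 9 in TELP N9. Pabpc1, the poly(A)-binding protein counted in this list, differed by -0.04 and -0.06. Eif3e was at 219.6, 119, 235, 42.3, 45.6 and 26.4 RPKM, with all libraries of day 7 below those of day 0.

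Factors that assemble ribosomes lay closer to 0 as a list than the members did. Over 43 genes the medians were 0.04 and -0.26, with 0 of 43 called in the standard libraries (background 8.22% higher and 6.53% lower). In TELP N9 2 were higher and 3 lower (background 13.9% and 29.9%). Rrs1, needed for building the large subunit, was at 5.85, 10.9, 7.24, 24.5, 23.4 and 2.22 RPKM (differences 0.79 and 1.63). Nhp2, a protein of the H/ACA snoRNPs that modify rRNA, was at 11.9, 23.9, 14.7, 30.6, 30.1 and 7.34 RPKM (0.95 and 1.01). Npm1, the nucleolar chaperone nucleophosmin, was at 226, 131, 182, 73.9, 72.0 and 16.6 RPKM (-0.78 and -1.29). The signs of these 3 genes were the same in both library types.

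RNA polymerase I and its factors, which make the rRNA precursor, had medians of -0.20 and -0.28 over 12 genes, with 0 called in the standard libraries and 3 lower in TELP N9, where the background was 29.9%. Ubtf, the upstream binding factor of this polymerase, differed by -0.57 and -1.04, and Taf1b by -0.50 and -1.26. Regulators of mTOR and of TOP mRNAs had medians of 0.12 and 0.20 over 14 genes, with 1 higher in both types (background 7.23%). This was Eif4ebp1, a repressor of cap-dependent translation that mTOR inactivates, at 34.6, 137, 38.8, 240.4, 247 and 40.2 RPKM (differences 1.96 and 2.60, limma adjusted p = 0.0683 with library type as block). Eif4ebp2 differed by 0.59 and 1.39, and Mtor itself by 0.44 and 1.07.

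**Figure D5:**
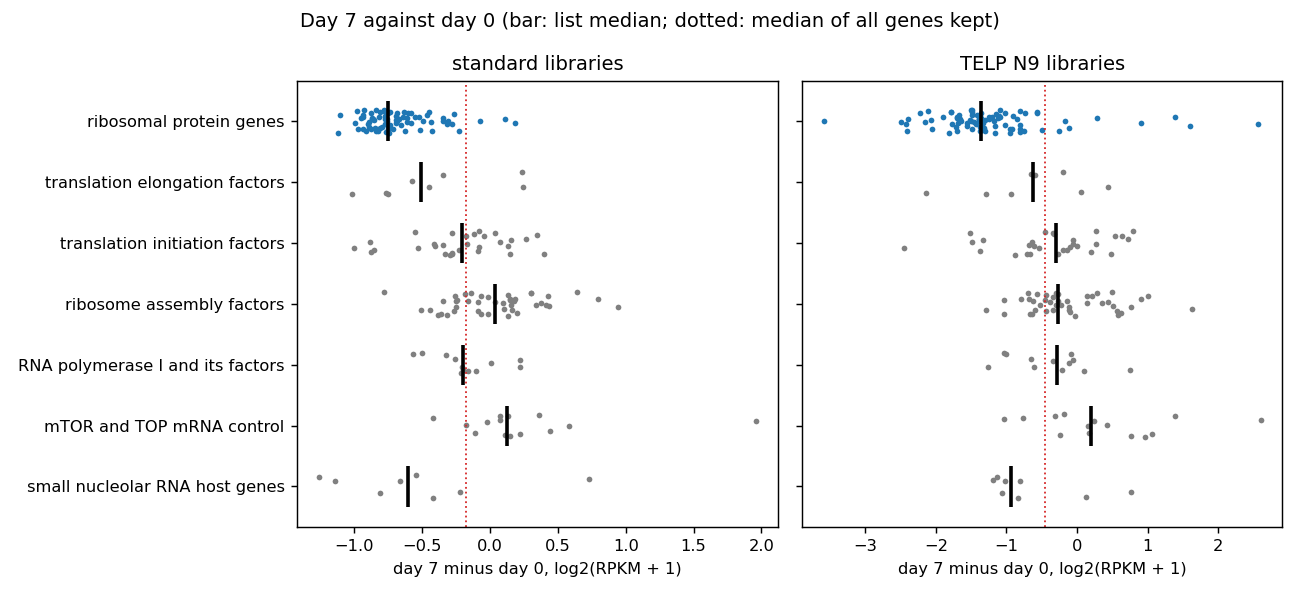
Difference between day 7 and day 0 in log2(RPKM + 1) for the members (blue) and 6 other lists of the translation machinery (grey), standard libraries on the left and TELP N9 on the right. Points are genes kept, black bars list medians and red dotted lines the medians of all genes, -0.18 and -0.45. The members' medians of -0.75 and -1.36 lie furthest to the left of the 7 medians in both panels.

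Small nucleolar RNAs guide the modification of rRNA, and many are cut from introns of ribosomal protein genes. By RefSeq annotation, 59 snoRNA genes lie inside 30 members, and 33 of the 59 are among the deposited symbols. Their summed RPKM was 3594, 3627, 916, 32340, 30906 and 19747, and 5 were listed at 0 in all libraries. The TELP libraries of day 7, which rest on the fewest reads, stood well above the others in this sum, and N9_ss shares reads with N9. The sum rested largely on a few genes. In N9 day 7, 16 of the 33 were listed at 0, and Snord83b, inside Rpl3, was the highest at 10424 RPKM. Snord100, inside Rps12, was at 281, 0, 176, 4293, 4102 and 0 RPKM. In the N9 pair its host Rps12 differed in the other direction, and in the standard pair both were lower at day 7. Rpl13a holds Snord34, which was at 344, 349, 0, 6427, 6142 and 1040 RPKM. Members with a snoRNA gene and members without had similar medians between the days, with -0.78 (30 members) and -0.74 (49 members) in the standard pair and -1.38 (30 members) and -1.35 (52 members) in the TELP N9 pair.

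Genes whose main known product is the snoRNA in their introns are also known for TOP sequences. Their list had medians of -0.60 and -0.93 over 8 genes kept. Lower by 1 or more in both library types were Snhg6, at 49.5, 20.1, 36.7, 17.0, 21.4 and 17.5 RPKM (-1.26 and -1.07), and Snhg8, at 6.57, 2.43, 13.4, 5.31, 5.08 and 7.22 RPKM (-1.14 and -1.19). The background for this was 5.81%. Snhg5 differed by -0.66 and -1.02, and Snhg3 in the other direction by 0.73 and 0.76. For Snhg6 all 4 libraries of day 7 lay below both libraries of day 0, and for Snhg8 they did not.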

How the data were processed

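RNA of 6 samples was analysed, 1 library per group. Per the submitters' processing notes, Bowtie2, TopHat and Cufflinks were used with build mm9. Versions, filters and the use of strand were not given in the sources used here. The authors deposited 1 table of RPKM values per gene and library, with no counts. Members and gene lists were chosen with earlier results of these data known.

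Values were analysed as log2(RPKM + 1), with genes kept at a mean of 1 RPKM or more over the libraries compared (pandas 2.3.3, NumPy 2.4.6, Python 3.11.15). A difference of 1 counted as a call, with no test between single libraries. limma 3.58.1 (R 4.3.3) fitted day with library type as block over 4 libraries, with Benjamini-Hochberg adjustment over all genes at 0.05. These steps were tested on simulated data. The simulation gave both library types the same true changes and equal depth, unlike these libraries, so it does not show how the steps perform here. The relative depth of libraries was read from steps between values under 0.5 RPKM that stood at 1 common ratio.

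Named members are the stalk proteins and Rpsa, paralogue forms, the 4 highest and 4 lowest differences per comparison, those called alike in paired comparisons, those under 1 RPKM in a library, and the 5 highest and 5 lowest levels. Ribosomal proteins outside the rule were also named, and of each other translation list 2 or 3 genes with the largest mean difference. Snhg3, Acta1, Des, Cd68, Cd14, Snord83b, Rpl10, Pabpc1 and Eef1a1 were added after their values were seen. Rps15, Rps20, Rpl7, Rpl22 and others were named beside them as namesakes or neighbours. Promoters came from RefSeq GRCm38.p6 and gene neighbours from the RefSeq table of GRCm38. The alternatives were another pseudocount, other filters, 3 scalings and other TELP libraries of day 7. From the list of ribosomal proteins outside the symbol rule, 1 gene is not reported here. Leaving out 4 members and adding copies to members were chosen after seeing the data.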

Additional observations from a re-analysis of the deposited data

Results flagged for a closer look

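For Rpl30, Rpl34 and Rps27 the difference between day 7 and day 0 had opposite signs in the standard and the TELP N9 libraries and was more than 1 apart between them. Rpl7l1 also had opposite signs, at 0.11 and -0.17. The TELP difference minus the standard difference in log2(RPKM + 1) was 2.70 for Rpl30, 1.82 for Rpl34 and 1.79 for Rps27. With 1 library per group the difference was not tested. For Rpl34 and Rps27 the sum with the copy was below 0 in both library types, and for Rpl30 no copy was found by symbol.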

How the results depend on the processing

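Of the results and alternatives computed, 136 were labelled the same, 25 moved and 3 reversed. A median was labelled the same when its sign held and it shifted by less than the distance between the members' quartiles. A count was labelled the same within a set ratio. The label thus covers sizeable shifts, such as the median of TELP N9 against standard at day 7 going from -0.03 to -0.80 after equal totals. Members counted here as higher or lower differed by 1 or more in log2(RPKM + 1). No share of all genes is given for these counts, so they describe the scaling and not the members. After median of ratios, 0 (standard) and 25 (TELP N9) members were lower at day 7 by this count, though the medians were -0.61 and -0.83. The median of TELP N9 against standard at day 7 reversed to 0.32 with 0 lower. N9_ss against N9 had 0 higher, and the T18 median against N9 reversed to 0.95 with 36 higher and 1 lower. After equal totals, TELP N9 was higher than standard by 1 or more in 11 members at day 0, where the median was 0.33. At day 7 under this scaling 4 members were higher and 29 lower, N9_ss had 0 higher, and 5 members passed limma. After quantile normalization, 12 members were lower at day 7 in the standard libraries, TELP N9 against standard at day 7 had 6 higher and 11 lower, N9_ss had 0 higher, and the T18 median reversed to 0.70 with 25 higher and 1 lower. With T18 in place of N9 the median between the days was -2.58, and against standard at day 7 it was -1.38 with 3 higher and 50 lower. Without Rpl26, Rps27, Rpl34 and Rpl30, 1 member was lower in the standard libraries, and 0 were higher in TELP N9 between the days and in N9_ss; with copies added, 0 were higher in N9_ss. Apart from the scaling and the library chosen, the cause of these shifts was not tested. No paired analysis was possible because the RNA labels carry no replicate numbers by which to pair libraries, and the block in limma was library type. Single libraries and unknown read counts limit every value here.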
